A study of Mus musculus with 12 samples.

Results

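Rhabdoid tumors that arose in P0-CreC;Smarcb1flox/flox mice were profiled by RNA sequencing, 12 in all, and the 3 tumors whose location label is Meninges were compared with the 9 tumors of the cranial nerve locations. The 9 tumors comprised 4 labelled Retro-orbital, 3 labelled Cheek, 1 labelled Vestibular N and 1 labelled Trigeminal N. Every tumor carried the same alleles: floxed Smarcb1 on both chromosomes and a Cre recombinase driven by the P0 promoter, which is active in early neural crest cells of the head and later in the Schwann cell lineage. The mice were on an FVB/N background, tumors arose without further treatment, and the labels used here give neither age nor sex. No normal meninges, nerve or Smarcb1-intact tissue was analysed here, so each value sets one tumor location against another. The comparison answers whether tumors that arose in the meninges differ in gene expression from those of the cranial nerves.

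Rhabdoid tumors are aggressive cancers driven by loss of SMARCB1, a core subunit of the SWI/SNF chromatin remodeling complex. SWI/SNF acts against Polycomb complexes, which keep developmental genes such as the Hox genes silent. Hox genes encode homeodomain transcription factors that sit in 4 clusters, HoxA to HoxD, and their order along the chromosome follows their order of expression along the body axis. Cells of the forebrain, midbrain, anterior head mesenchyme and first branchial arch normally express none of them, and the 5′ members of the HoxD cluster, from Hoxd9 on, are known from the limb, the trunk and the genital bud. The meninges are the membranes around the brain. Those over the forebrain derive in large part from neural crest.

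The measurement was 1 RPKM value (mapped reads divided by transcript length and by library depth) per gene and tumor. Steps between low RPKM values gave an estimate of the fragments behind a value, with totals of 17801110 to 27513940 fragments in the meninges tumors and 13206469 to 57129509 in the cranial nerve tumors. The 2 most similar libraries were Cheek 2 and Cheek 3, with a profile distance (1 minus Pearson's r) of 0.0359 where the next closest pair had 0.146, and a chi-square of 9.60 per degree of freedom over 10110 genes where the next pair had 32.5. They were labelled as separate samples and kept as such, although libraries of 1 tumor could also differ by more than counting noise. Some tumors share the first part of their identifier, namely Meninges 1 with Cheek 1, Cheek 2 with Cheek 3, and Retro-orbital 3 with Trigeminal N 1. Whether such tumors came from 1 mouse is not stated, and p-values below treat them as independent. Smarcb1 itself was read at 5.15, 4.73 and 6.31 RPKM in Meninges 1, 2 and 3 and at 1.699 to 6.001 (median 3.68) in the cranial nerve tumors. Its log2 difference was 0.45 ± 0.27 SE (limma, adjusted p = 0.660), and a whole-gene value also counts exons outside the deleted part and RNA of cells that kept the gene, so it does not check the deletion.

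The sequences below are those upstream of 4 HoxD genes. They show how CpG-rich (marked CG in capitals) the starts are of Hoxd10 and Hoxd11, whose RNA differed between the locations, beside Hoxd4, which also differed, and Hoxd13, at the 5′ end of the cluster. Each is the run of 250 bases before the gene's start on the plus strand of chromosome 2, from RefSeq on GRCm38.p6 (the reference behind mm10), and all 9 HoxD genes matched the RefSeq table. Gene positions given further below are whole spans from another annotation (GENCODE M21). The runs of Hoxd4 and Hoxd11 shown therefore lie inside the spans given for these genes.
Hoxd13, chr2:74667975-74668224: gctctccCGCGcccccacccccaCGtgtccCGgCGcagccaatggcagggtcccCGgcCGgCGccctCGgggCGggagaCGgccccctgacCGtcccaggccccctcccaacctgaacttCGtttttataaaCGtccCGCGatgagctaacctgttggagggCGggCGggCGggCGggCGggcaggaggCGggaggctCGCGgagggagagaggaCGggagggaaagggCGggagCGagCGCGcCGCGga
Hoxd11 (second of its 2 starts), chr2:74682073-74682322: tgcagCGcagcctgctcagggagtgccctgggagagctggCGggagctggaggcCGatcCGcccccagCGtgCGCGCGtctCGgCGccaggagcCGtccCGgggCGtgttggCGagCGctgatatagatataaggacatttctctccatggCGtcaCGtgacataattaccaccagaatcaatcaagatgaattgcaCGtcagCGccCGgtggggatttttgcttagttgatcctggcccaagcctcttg
Hoxd10, chr2:74691641-74691890: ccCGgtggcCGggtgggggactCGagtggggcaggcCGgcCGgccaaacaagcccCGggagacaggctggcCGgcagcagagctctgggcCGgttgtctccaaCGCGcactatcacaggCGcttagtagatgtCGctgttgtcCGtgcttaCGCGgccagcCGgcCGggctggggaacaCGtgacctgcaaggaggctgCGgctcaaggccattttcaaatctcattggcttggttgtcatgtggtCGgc
Hoxd4, chr2:74721728-74721977: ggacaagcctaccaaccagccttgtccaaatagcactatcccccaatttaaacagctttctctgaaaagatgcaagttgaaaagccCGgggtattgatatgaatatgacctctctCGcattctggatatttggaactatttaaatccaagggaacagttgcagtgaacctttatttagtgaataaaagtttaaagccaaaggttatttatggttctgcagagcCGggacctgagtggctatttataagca
The dinucleotide CG, which reads the same on both strands, occurs 31 times in the Hoxd13 run, 20 times in those of Hoxd11 and Hoxd10 and 3 times in that of Hoxd4. Of 32851 promoters of the same length, 5.19% hold at least 31, 17.9% at least 20 and 70.97% at least 3, and the median is 6. The first start of Hoxd11, not shown, holds 2, and 81.2% of promoters hold at least as many. The most CpG-rich of the 4 belongs to a gene that reached at most 2.01 RPKM.

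Across the genome, 4 genes passed the threshold and all 4 were higher in the meninges tumors. They were Hoxd10, Hoxd11, Hoxd4 and Slc38a5. Values were fitted with limma as log2(RPKM + 1). A gene was tested if it reached 1 RPKM in 3 tumors or more, which 15043 did, with Benjamini-Hochberg adjustment at 0.05, and the 4 genes make up 0.0266% of those tested (0.0% were lower). At an unadjusted p under 0.05, 1090 genes (7.25%) were higher in the meninges tumors and 243 (1.62%) lower. In 210 genes (1.40%) all 3 meninges values lay above all 9 cranial nerve values, and in 54 (0.359%) they lay below. The median log2 difference over all tested genes was 0.12, so the whole distribution sat slightly toward the meninges. After each tumor was centred on its median the median difference was -0.053, and the share of unadjusted calls that were higher dropped from 81.8% to 47.4% (55.4% with quantile normalization), while 115 genes lay above and 193 below. Medians of gene lists are therefore also given after centring, and Hoxd10 and Hoxd11 passed the adjusted threshold under both scalings.

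**Figure D1:**
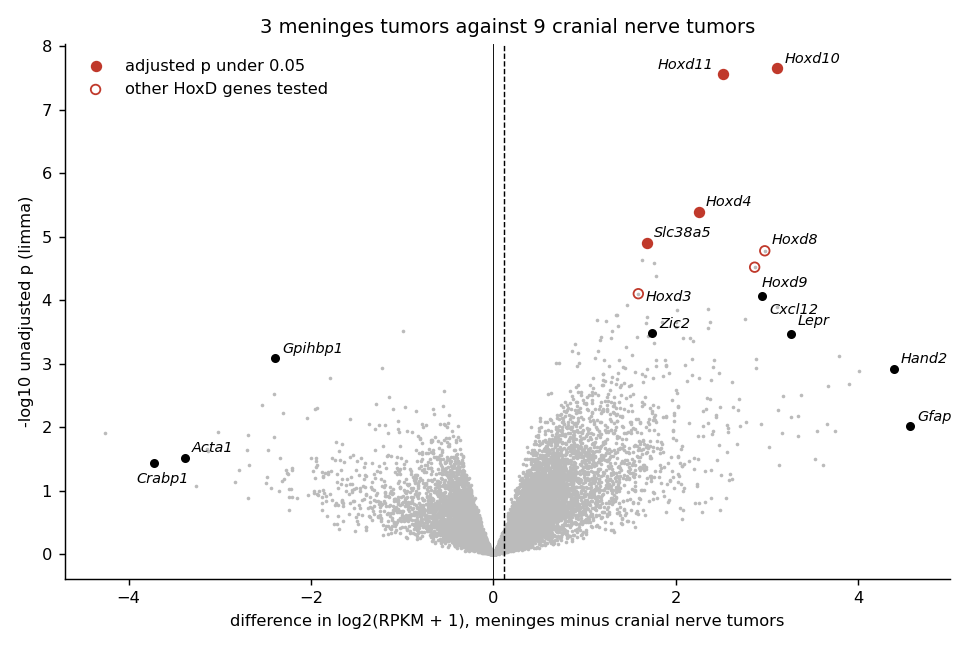
Each gray point is 1 of the 15043 tested genes, with the difference in log2(RPKM + 1), meninges minus cranial nerve tumors, on the x axis and -log10 of limma's unadjusted p on the y axis. Filled red points are the 4 genes with an adjusted p under 0.05, open red circles the other tested HoxD genes, black points other genes discussed, and the dashed line the median of all genes (0.12). The HoxD genes occupy the upper right, with Hoxd10 and Hoxd11 far above all others.

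Hoxd10, a 5′ HoxD gene known for patterning of the limb and lumbar spinal cord (chr2:74691924-74695105 on mm10, plus strand), was read at 14.6, 8.86 and 5.74 RPKM in Meninges 1, 2 and 3. In the cranial nerve tumors it was at 0.020, 0.0368, 0.397 and 0.157 RPKM in the 4 Retro-orbital tumors, 0.0953, 0.149 and 0.123 in the 3 Cheek tumors, 0.0571 in Vestibular N 1 and 0.587 in Trigeminal N 1. Every meninges tumor thus lay well above every cranial nerve tumor, and no cranial nerve tumor reached 1 RPKM. Hoxd10 passed the filter only through the meninges tumors, so the lack of overlap was fixed by the filter and is no evidence of its own. The means were 9.74 ± 4.51 RPKM (SD, n = 3) and 0.180 ± 0.189 (SD, n = 9). The difference of log2(RPKM + 1), a scale that makes changes at low levels look smaller than they are, was 3.12 ± 0.26 SE (limma, adjusted p = 2.07e-04). Behind these values stood 745, 431 and 189 fragments in the meninges tumors and 1 to 42 in the others.

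Hoxd11 (chr2:74679557-74687016, plus strand), the neighbor of Hoxd10 and a gene of forearm and kidney development, was read at 7.54, 4.24 and 3.88 RPKM in the meninges tumors. It was at 0.00877, 0.0404, 0.320 and 0.0173 RPKM in the Retro-orbital tumors, 0.0168, 0.00728 and 0 in the Cheek tumors, 0 in Vestibular N 1 and 0.101 in Trigeminal N 1. The groups were again fully apart, which the filter fixed as for Hoxd10, with 77 fragments in Retro-orbital 3, 9 in Trigeminal N 1, 5 in Retro-orbital 2 and 0 to 3 in the other 6 cranial nerve tumors. The means were 5.22 ± 2.02 RPKM (SD, n = 3) and 0.0568 ± 0.104 (SD, n = 9), the latter resting mostly on Retro-orbital 3. The log2 difference was 2.52 ± 0.21 SE (limma, adjusted p = 2.07e-04). In the meninges tumors Hoxd10 and Hoxd11 shared the order of the HoxD cluster as a whole, with Meninges 1 highest and Meninges 3 lowest.

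Hoxd4, a 3′ HoxD gene of the hindbrain and neck (chr2:74711929-74729160), was at 9.29, 4.96 and 2.70 RPKM in the meninges tumors and at 0.0413 to 0.720 (median 0.207) in the cranial nerve tumors, with Trigeminal N 1 and Retro-orbital 3 the highest of the 9. Its log2 difference was 2.26 ± 0.29 SE (limma, adjusted p = 0.0202). Hoxd3 lies beside Hoxd4 and overlaps it on the same strand, so that fragments in the shared stretch may have been assigned to neither. It was at 5.21, 2.14 and 1.01 RPKM against 0.0254 to 0.338 (median 0.0845), with a log2 difference of 1.59 ± 0.28 SE that did not pass (adjusted p = 0.116, unadjusted 7.89e-05). In both genes Meninges 3 lay closest to the cranial nerve tumors, and no values overlapped, which the filter fixed here too.

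Hoxd8 and Hoxd9 lie between these genes, and Hoxd8 had the highest RPKM of the cluster in each of the 3 meninges tumors. Hoxd8 (chr2:74704615-74707933) was at 25.2, 21.2 and 7.65 RPKM in the meninges tumors and at 0.424 to 4.18 (median 0.965) in the cranial nerve tumors, where Trigeminal N 1 was highest. Hoxd9 (chr2:74697727-74700208) was at 18.7, 11.7 and 3.397 RPKM against 0 to 2.54 (median 0.202), again highest in Trigeminal N 1. The log2 differences were 2.98 ± 0.45 SE for Hoxd8 and 2.87 ± 0.46 SE for Hoxd9. They were close in size to that of Hoxd10 but missed the threshold (limma, adjusted p = 0.0501 and 0.0567), with a wider spread: Meninges 3 held 3.397 RPKM of Hoxd9 beside 2.54 in Trigeminal N 1. With the shared identifier as a random block, Hoxd8, Hoxd9 and Hoxd3 passed (adjusted p = 0.00194, 0.00608 and 0.0105). With 1 tumor per identifier (without Cheek 1, Cheek 3 and Trigeminal N 1) they did not (0.153, 0.163 and 0.475).

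At both ends of the cluster the levels were low. Hoxd13, at the 5′ end, was at 1.16, 0.398 and 2.01 RPKM in the meninges tumors and 0 to 0.317 (median 0.0488) in the others, also without overlap, but reached 1 RPKM in only 2 tumors and was not tested. Meninges 3, lowest of the meninges tumors for Hoxd8 and Hoxd9, was highest for Hoxd13 and for Hoxd12 (0.665 RPKM, 30 fragments), while Meninges 1 had 0 fragments of Hoxd12. Hoxd1, at the 3′ end, was at 0.0390, 0.123 and 0.362 RPKM against 0 to 0.132 (median 0), and the groups overlapped. Of the 9 HoxD genes, 6 were therefore tested and 3 passed, beside 0.0266% of all tested genes. The 6 had a median log2 difference of 2.69 (2.52 after centring), beside 0.12 over all genes. In 4 of the 6 (Hoxd3, Hoxd4, Hoxd10 and Hoxd11), as in Slc38a5, the 3 tumors at 1 RPKM were the 3 meninges tumors, so the filter admitted them through the group where they were high and fixed that their groups do not overlap. Of the 15043 genes 17 were admitted in this way. Hoxd8 and Hoxd9 also did not overlap, beside 1.40% of all genes. The list was chosen with these differences known and gives no independent evidence of direction.

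**Figure D2:**
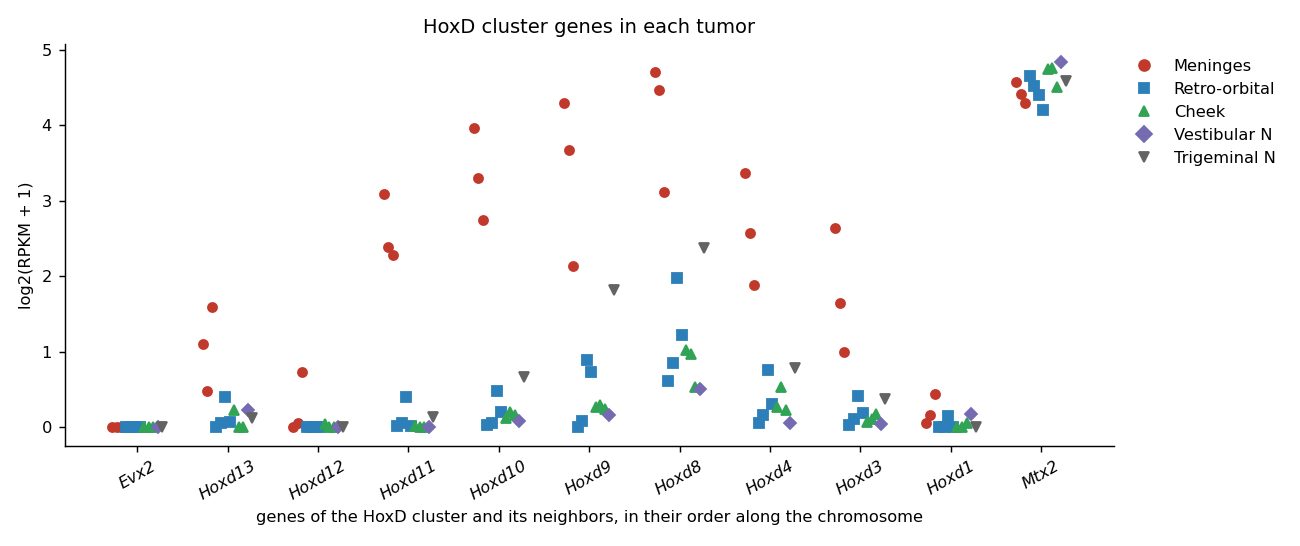
Each symbol is 1 tumor, with log2(RPKM + 1) on the y axis and the HoxD genes with both neighbors in chromosome order on the x axis. The 3 meninges tumors (red circles) stand above all 9 cranial nerve tumors from Hoxd11 to Hoxd3 and in Hoxd13, while Evx2 is at 0 in all tumors and Mtx2 overlaps between the groups.

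No difference passed in the genes next to the cluster. Evx2, the homeobox gene beyond Hoxd13, was listed at 0 in all 12 tumors. Mtx2, which encodes a mitochondrial outer membrane protein and lies beyond Hoxd1, was at 22.7, 20.4 and 18.7 RPKM in the meninges tumors and 17.4 to 27.6 (median 23.1) in the others (log2 difference -0.15 ± 0.15 SE, adjusted p = 0.785). The other tested neighbors Atf2, Atp5g3 and Lnp had log2 differences of -0.084 ± 0.17, -0.19 ± 0.23 and -0.11 ± 0.22 SE, and none of the 4 passed (median -0.13, -0.3 after centring). At an unadjusted p under 0.05, 0 of the 4 differed, beside 7.25% higher and 1.62% lower among all genes. Within the cluster the antisense RNA Hoxd3os1 was at 2.01, 0.670 and 0.849 RPKM against 0 to 0.238 (median 0.0386), too low to be tested. Its library kit keeps the strand, but whether counting used it is not stated, so its fragments cannot be told apart from those of the genes it overlaps.

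Hoxd10 and Hoxd11 also passed against each cranial nerve location that had more than 1 tumor, and the other 4 tested HoxD genes passed against neither (adjusted p 0.0625 to 0.284, Hoxd4 0.123 and 0.0794). Against the Retro-orbital tumors alone, the log2 difference was 3.15 for Hoxd10 (adjusted p = 0.0244) and 2.47 for Hoxd11 (adjusted p = 0.0244), both by limma. Against the Cheek tumors alone it was 3.17 and 2.58 (adjusted p = 0.0220 and 0.0226). Meninges 1 and Cheek 1, which share the first part of their identifier, held 745 and 5 fragments of Hoxd10 and 874 and 2 of Hoxd11. With 1 tumor per identifier the adjusted p of Hoxd10 and Hoxd11 was 0.0170 and 0.0207, and that of Hoxd4 0.163. That fit left out Cheek 1, Cheek 3 and Trigeminal N 1, the last of which was the highest cranial nerve tumor for Hoxd10. No other choice of tumors per identifier was run. Hoxd10 and Hoxd11 passed without any 1 of the 9 cranial nerve tumors (adjusted p 0.000436 to 0.00102). When a meninges tumor was left out and the 15043 genes were kept, Hoxd10 stayed at log2 differences of 2.80, 3.13 and 3.41 without Meninges 1, 2 and 3, with adjusted p = 0.00172, 0.00185 and 4.69e-04. Hoxd10, Hoxd11 and Hoxd4 were among those genes only because every meninges tumor, also the one left out, reached 1 RPKM. For these genes such refits are therefore no independent check. Hoxd8 and Hoxd9 passed without Meninges 3 (adjusted p = 0.0215 and 0.0137), Retro-orbital 3 (0.0314 and 0.0469) or Trigeminal N 1 (0.0158 and 0.0158). Hoxd4 missed the threshold when Retro-orbital 1, Retro-orbital 2, Cheek 1 or Cheek 3 was left out (adjusted p up to 0.0632) and without Meninges 1 or 2 (adjusted p = 0.0734 and 0.0972).

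The other Hox clusters had different patterns. HoxB genes, which mark hindbrain and spinal cord levels, were carried by 1 tumor: their summed RPKM was 104 in Meninges 1, 2.17 in Meninges 2 and 10.04 in Meninges 3, and 0.193 to 7.203 (median 1.22) in the cranial nerve tumors. Hoxb7 was at 22.8, 0.719 and 1.64 RPKM in the meninges tumors and up to 1.99 in the others, and Hoxb6 at 22.3, 0.144 and 1.53 and up to 1.404. All 5 tested HoxB genes were higher at an unadjusted p under 0.05, beside 7.25% of all genes (median log2 difference 1.52, 1.35 after centring), and none passed. Without Meninges 1 the median was 0.49 and 0 of the 5 had an unadjusted p under 0.05. High HoxB levels were thus seen in Meninges 1 and not in Meninges 2 or 3.

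HoxC genes, including Hoxc6, Hoxc8, Hoxc9 and Hoxc10 of the neck-to-lumbar levels, were expressed in tumors of both groups. The cluster sum was 44.2, 17.04 and 21.9 RPKM in the 3 meninges tumors. It was 109 in Cheek 1, 55.3 in Trigeminal N 1 and 50.2 in Retro-orbital 2, all above the 3 meninges values, and under 1 in Retro-orbital 1, Cheek 2, Cheek 3 and Vestibular N 1 (highest 0.526). None of the 6 tested HoxC genes had an unadjusted p under 0.05, beside 7.25% higher and 1.62% lower among all genes. Hoxc6 was at 15.2, 5.68 and 6.18 RPKM in the meninges tumors and 31.9 in Cheek 1 (log2 difference 1.53 ± 1.02 SE, adjusted p = 0.688), and Hoxc9 at 4.27, 1.19 and 1.76 RPKM and 19.1 in Cheek 1 (0.12 ± 0.97 SE, adjusted p = 0.981, below 0 after median centring). No HoxA gene of 11 reached 1 RPKM in 3 tumors. Their sum was 1.12, 0.678 and 3.02 RPKM in the meninges tumors, with the highest values in Trigeminal N 1 (33.4) and Retro-orbital 3 (10.2).

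**Figure D3:**
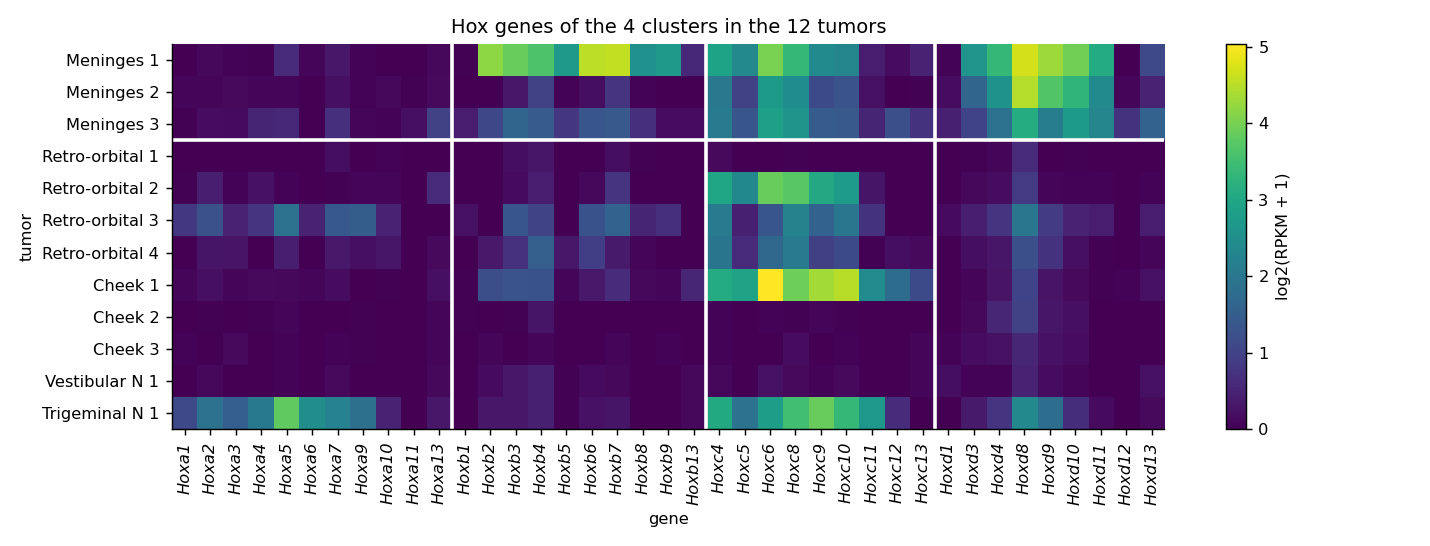
The color of each cell gives log2(RPKM + 1) of 1 Hox gene (x axis, HoxA to HoxD separated by white lines) in 1 tumor (y axis, the 3 meninges tumors above the white line). The HoxD block from Hoxd3 to Hoxd11 is brightest in the 3 meninges tumors, HoxB in Meninges 1, HoxC in tumors of both groups and HoxA in Trigeminal N 1.

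The fourth gene past the threshold was Slc38a5, which encodes a neutral amino acid transporter (chrX:8271133-8280179). It was at 1.696, 3.91 and 2.98 RPKM in the meninges tumors, with Meninges 1 lowest, and at 0 to 0.623 (median 0.0567) in the cranial nerve tumors. The lack of overlap was fixed by the filter, which this gene passed only through the meninges tumors. The means were 2.86 ± 1.11 (SD, n = 3) and 0.187 ± 0.234 RPKM (SD, n = 9). The log2 difference was 1.68 ± 0.25 SE (limma, adjusted p = 0.0467). The call was lost when Retro-orbital 1, Retro-orbital 2, Trigeminal N 1 or any 1 of the 3 Cheek tumors was left out (adjusted p up to 0.129), and without Meninges 2 or 3 with the genes kept (adjusted p = 0.195 and 0.218).

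Outside the Hox genes, the genes with the largest positive differences among those without overlap were Cxcl10, Slc1a3, Lepr, Tnfrsf19, Cxcl12, Zic4 and Cck, and none of them passed the threshold. Cxcl12, a chemokine made by meningeal fibroblasts, was at 82.2, 24.5 and 21.3 RPKM in the meninges tumors and 2.04 to 12.5 (median 2.58) in the others (log2 difference 2.95 ± 0.52 SE, adjusted p = 0.116). Zic4, one of a family of zinc finger factors of the dorsal brain and its coverings, was at 27.5, 14.8 and 24.3 RPKM against 0.0915 to 9.202 (median 1.67) (log2 difference 2.88 ± 0.66 SE, adjusted p = 0.233). Cxcl10, an interferon-induced chemokine, was at 269.6, 129 and 98.1 RPKM against 0.897 to 91.9 (median 10.6), so that Meninges 3 and Trigeminal N 1 nearly met (log2 difference 3.56 ± 1.20 SE, adjusted p = 0.443). Lepr, the leptin receptor, and Cck, a neuropeptide, both peaked in Meninges 2. Lepr was at 5.88, 99.9 and 13.6 RPKM against at most 4.94, and Cck at 2.26, 27.9 and 12.8 against at most 1.69 (log2 differences 3.26 ± 0.67 and 2.76 ± 0.53 SE, adjusted p = 0.157 and 0.136). Tnfrsf19, a receptor of the tumor necrosis factor family, was at 20.7, 40.02 and 10.7 RPKM against at most 9.34 (log2 difference 3.12 ± 0.58 SE, adjusted p = 0.136).

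The genes with the largest negative differences without overlap included muscle, skeletal and vascular genes, and none passed either. Gpihbp1, which anchors lipoprotein lipase to capillary endothelium, was at 0, 0.429 and 0.141 RPKM in the meninges tumors and 1.07 to 14.2 (median 6.61) in the others (log2 difference -2.39 ± 0.55 SE, adjusted p = 0.233). Mb, myoglobin, was at 0.377, 0.0911 and 0.179 RPKM against 0.641 to 64.9 (median 5.96), and Ttn, titin, at 0.251, 0.250 and 0.366 against 0.521 to 11.9 (median 3.53). Ctsk, the protease of osteoclasts, was at 2.27, 1.71 and 2.45 RPKM against 4.95 to 805 (median 27.3), where Retro-orbital 2 alone set the maximum. Fhl2, a LIM-domain cofactor, was at 2.02, 2.47 and 3.01 RPKM against 5.79 to 72.97 (median 11.8), Aqp1, a water channel, at 1.65, 2.301 and 1.57 against 2.77 to 45.7 (median 14.7), and Cyb5r3, a cytochrome b5 reductase, at 49.7, 55.9 and 58.3 against 60.4 to 482 (median 142). The matrix protein gene Cilp, at 0.0788, 0.0183 and 0.149 RPKM in the meninges tumors, was nearly as low in Vestibular N 1 and Trigeminal N 1 (0.195 and 0.159) and at 3.20 or more in the 7 Retro-orbital and Cheek tumors. Msx1, a homeobox gene of the branchial arches and teeth, was at 0.282, 0.492 and 0.262 RPKM against 0.514 to 25.7 (median 1.51), highest in Cheek 3 and Cheek 2. For these 8 genes other than Gpihbp1, adjusted p ranged from 0.357 to 0.594. The tenth, the uncharacterized transcript 4930415F15Rik, had a log2 difference of -1.79 ± 0.45 SE (adjusted p = 0.284).

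The label Meninges was checked against 30 meningeal and arachnoid markers. Their summed RPKM was 2658, 1499 and 1494 in the meninges tumors and 1033 to 2951 (median 1699) in the cranial nerve tumors, so the sum did not set the locations apart. Of 26 tested, 7 had an unadjusted p under 0.05 and were higher, beside 7.25% of all genes (0 lower, 2 after centring). In 2 of the 26 (Cxcl12 and Zic2) the groups did not overlap, beside 1.40% of all genes, and none of the 26 passed. Their median log2 difference was 1.20, beside 0.12 over all genes, and 1.03 after median centring. It was 0.47 without Meninges 1, with 4 of the 26 higher, and 1.87 without Meninges 2. Zic2 was at 5.73, 2.33 and 5.21 RPKM in the meninges tumors and 0.0620 to 1.78 (median 0.428) in the others (log2 difference 1.74 ± 0.36 SE, adjusted p = 0.157). Ptgds, the prostaglandin D2 synthase of arachnoid cells, was at 31.3, 27.9 and 29.03 RPKM and was higher still in Retro-orbital 4 (51.5), against 0.0876 in Cheek 1. For its protein the paper reports no stain in meningeal tumor tissue, unlike in the arachnoid cell layer. Which cells the bulk Ptgds RNA came from was not tested. Foxc1, a forkhead factor needed for meningeal development, was at 88.3, 12.4 and 50.5 RPKM, with 82.8 in Retro-orbital 3 and 94.1 in Trigeminal N 1. Zic1 was at 147, 71.6 and 159 RPKM against 0.508 to 146 (median 21.02). The solute carriers Slc6a13 and Slc47a1 of barrier and arachnoid cells stayed under 1 RPKM in the 3 meninges tumors, and Tbx18 was lower there (0.653, 0.414 and 2.71 RPKM) than in Retro-orbital 2, Cheek 2 and Cheek 3 (29.01, 36.7 and 33.4). For the most abundant of these markers the 3 tumors overlapped with Retro-orbital 3, Retro-orbital 4 or Trigeminal N 1.

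Markers of brain glia had positive differences, and none of those tested passed. Of 12 astrocyte markers tested, 7 had an unadjusted p under 0.05 and were higher, beside 7.25% of all genes (median log2 difference 1.93, 1.77 after centring, with 5 of the 7 left). Of 9 oligodendrocyte markers 7 likewise were (1.20, 1.03 after centring, with 5 left). Without Meninges 1 each count fell to 4, and the astrocyte count was also 4 without Meninges 3, Retro-orbital 1, 2 or 4, or Cheek 2 or 3. Gfap, the intermediate filament of astrocytes, was at 228, 65.1 and 259.8 RPKM in the meninges tumors, 128 in Retro-orbital 3, 81.5 in Trigeminal N 1 and under 1 in Retro-orbital 1 and 2 and all Cheek tumors. Slc1a3, the glial glutamate transporter, was at 54.2, 77.6 and 73.03 RPKM against 0.606 to 34.3 (median 4.37). Mag, a myelin glycoprotein, was at 5.39, 3.95 and 7.06 RPKM against 0.187 to 2.47 (median 0.363) (log2 difference 1.85 ± 0.36 SE, adjusted p = 0.136). Olig2, which defines the oligodendrocyte lineage, stayed under 1 RPKM in all 12 tumors (0.790, 0.437 and 0.968 in the meninges tumors). The filter therefore kept it from being tested. Without the filter Olig2 was among the 20 genes called by limma, all of them higher in the meninges tumors. The bulk values cannot tell more cells of a type from more RNA per cell.

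The brain neuron markers were mixed: 5 of 13 had an unadjusted p under 0.05 and were higher, beside 7.25% of all genes. Camk2a was at 6.29, 2.08 and 3.72 RPKM against 0.0758 to 1.62 (median 0.374) (log2 difference 1.68 ± 0.33 SE, adjusted p = 0.136). The summed level of the neuron markers, 111, 91.9 and 162 RPKM, lay within the 53.7 to 644 (median 106) of the cranial nerve tumors. Rbfox3, which defines mature neurons, was at 0.931, 0.332 and 1.08 RPKM in the meninges tumors. Of 14 markers of Schwann cells and nerve, 7 had an unadjusted p under 0.05 and were higher, beside the same 7.25% (median 0.76, 0.59 after centring). S100b was at 23.3, 13.99 and 32.5 RPKM against 0.593 to 13.98 (median 2.75), where Meninges 2 and Retro-orbital 3 were level. Among 15 endothelial and mural genes 3 had an unadjusted p under 0.05 and were higher, again beside 7.25% of all genes. Cldn5, a tight junction protein of brain vessels, was at 30.4, 21.8 and 23.2 RPKM against 0.844 to 14.3 (median 4.42) (log2 difference 2.25 ± 0.57 SE, adjusted p = 0.284).

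The levels of these cell types and of HoxD were set side by side in each tumor. Summed astrocyte markers were at 926, 365 and 807 RPKM in Meninges 1, 2 and 3 and 710.0 in Retro-orbital 3, and the HoxD sums were 81.8, 53.7 and 27.4 and 5.98 RPKM. The astrocyte sums include Gja1, Ndrg2 and Glul, which were also abundant in the Cheek tumors, where Gfap was under 1 RPKM. Of the defining markers, Gfap and Aqp4 were at 65.1 and 19.7 RPKM in Meninges 2, 128 and 121 in Retro-orbital 3 and 81.5 and 27.4 in Trigeminal N 1, whose HoxD sum was 8.52 RPKM. Summed oligodendrocyte markers were at 92.3, 61.9 and 77.02 RPKM in the meninges tumors and at most 58.9 in the others, in Vestibular N 1, whose HoxD sum was 0.978. The part of astrocyte, oligodendrocyte, Schwann cell and endothelial RNA in the HoxD difference was not tested.

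**Figure D4:**
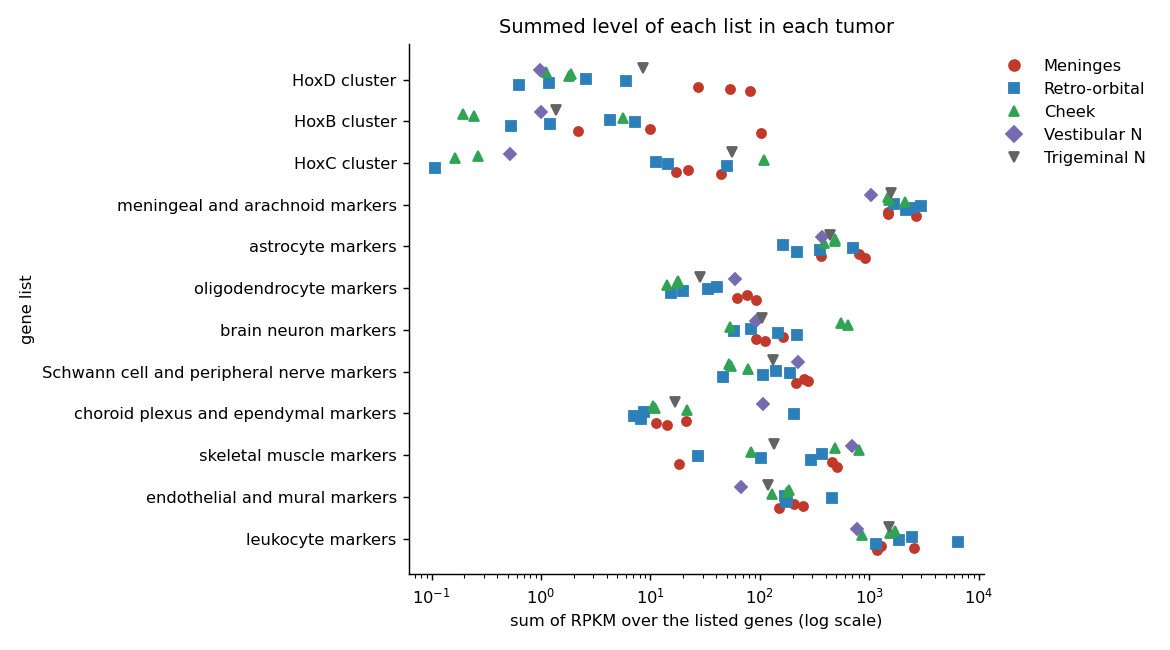
Each symbol is the sum of RPKM over the genes of 1 list (y axis) in 1 tumor, on a log x axis. The 3 meninges tumors (red circles) lie above every cranial nerve tumor for HoxD (27.4 to 81.8 against at most 8.52) and, by a narrow margin, for oligodendrocyte markers (61.9 to 92.3 against at most 58.9), and overlap them for the other 10 lists.

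Muscle markers ran the other way in part of the list. Acta1, skeletal muscle actin, was at 0.787, 0.823 and 0.608 RPKM in the meninges tumors and 0.490 to 196 (median 22.04) in the others, and Atp2a1, the calcium pump of fast fibers, at 0.655, 0.497 and 0.980 against 0.626 to 9.45 (median 3.83) (log2 differences -3.39 ± 1.39 and -1.25 ± 0.55 SE, adjusted p = 0.527 and 0.544). They were the 2 of 16 muscle genes with an unadjusted p under 0.05, beside 1.62% of all genes, and the median was -0.63 (-0.8 after centring). None was lower at that threshold when any 1 of the 3 meninges tumors was left out, and 2 were higher without Meninges 2. Myh1, a fast myosin, was at 112, 0.202 and 154 RPKM, and the summed muscle markers at 509, 18.3 and 455 RPKM. Both were thus high in Meninges 1 and 3, where Acta1 and Atp2a1 stayed under 1 RPKM as in Meninges 2. Choroid plexus markers did not follow the location: Ttr, which defines this epithelium, was at 2.74, 0.187 and 0.0460 RPKM in the meninges tumors and at 96.1 in Vestibular N 1. Of the list, 0 of 7 had an unadjusted p under 0.05, beside 7.25% higher and 1.62% lower among all genes.

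Genes of craniofacial position were expressed in both groups, with 5 of 32 higher and 1 lower at an unadjusted p under 0.05, beside 7.25% and 1.62% of all genes, and a median of 0.15 (-0.021 after centring). The 5 became 2 without Meninges 3 and 2 of the 26 then tested without Retro-orbital 3. Hand2, a basic helix-loop-helix factor of the branchial arches and sympathetic lineage, was at 80.5, 85.1 and 40.3 RPKM in the meninges tumors and at 69.01 in Retro-orbital 4, but at no more than 5.26 in the other 8 (log2 difference 4.39 ± 1.06 SE, adjusted p = 0.248). It passed without Retro-orbital 4 and with the block (limma, adjusted p = 0.0185 without that tumor, 0.0312 with the identifier block and 0.667 with 1 tumor per identifier). Dlx5 and Dlx6, neighbors that pattern the lower jaw, were at 2.397, 0.485 and 4.34 and 1.09, 0.391 and 3.88 RPKM, low in Meninges 2, against at most 1.14 and 1.16. Tbx3, a T-box repressor, was at 0.646, 0.440 and 0.279 RPKM against 0.675 to 6.44 (median 2.72) without overlap (log2 difference -1.30 ± 0.43 SE, adjusted p = 0.440).

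No listed regulator of Hox genes passed the threshold, which only 0.0266% of all tested genes passed, so this says little about them. Among 23 Polycomb, Kdm6 and Trithorax genes the median was 0.14, which turned to -0.026 after centring. At an unadjusted p under 0.05, 1 was higher and 1 lower, beside 7.25% and 1.62% of all genes. They were Kmt2a, the Trithorax-group methyltransferase that maintains Hox expression (18.2, 14.1 and 14.2 RPKM against 6.61 to 14.6 (median 9.09), adjusted p = 0.404), and Aebp2, a Polycomb cofactor (10.4, 11.7 and 9.45 against 11.04 to 31.7 (median 15.7), adjusted p = 0.549). Retinoic acid induces Hox genes in the embryo. In its pathway 0 of 19 genes were higher and 1 lower at an unadjusted p under 0.05, beside the same 7.25% and 1.62%. The lower gene was Crabp1, a retinoic acid binding protein, at 1.405, 60.6 and 3.92 RPKM against 5.79 to 985 (median 139) (log2 difference -3.72 ± 1.58 SE, adjusted p = 0.529). Among 24 SWI/SNF subunits 4 were higher at an unadjusted p under 0.05, beside 7.25% of all genes, and 2 without Meninges 1 (median 0.26, 0.09 after centring), with Smarcc2 at 51.2, 51.6 and 52.5 RPKM against 23.5 to 46.7 (median 34.0) (adjusted p = 0.418). Proliferation genes had a median of 0.34 (0.17 after centring). At an unadjusted p under 0.05, 1 of 19 was higher, beside 7.25% of all genes, and 0 after centring. It was Foxm1 (14.1, 12.8 and 8.08 RPKM against 4.96 to 11.9 (median 6.396)). Of the neural crest factors, 1 of 17 was higher at that threshold, a share below the 7.25% of all genes, and 0 without Meninges 1. It was Sox10, the factor of neural crest and glia (3.56, 0.911 and 1.51 RPKM against 0.0878 to 1.503 (median 0.279), adjusted p = 0.518).

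**Figure D5:**
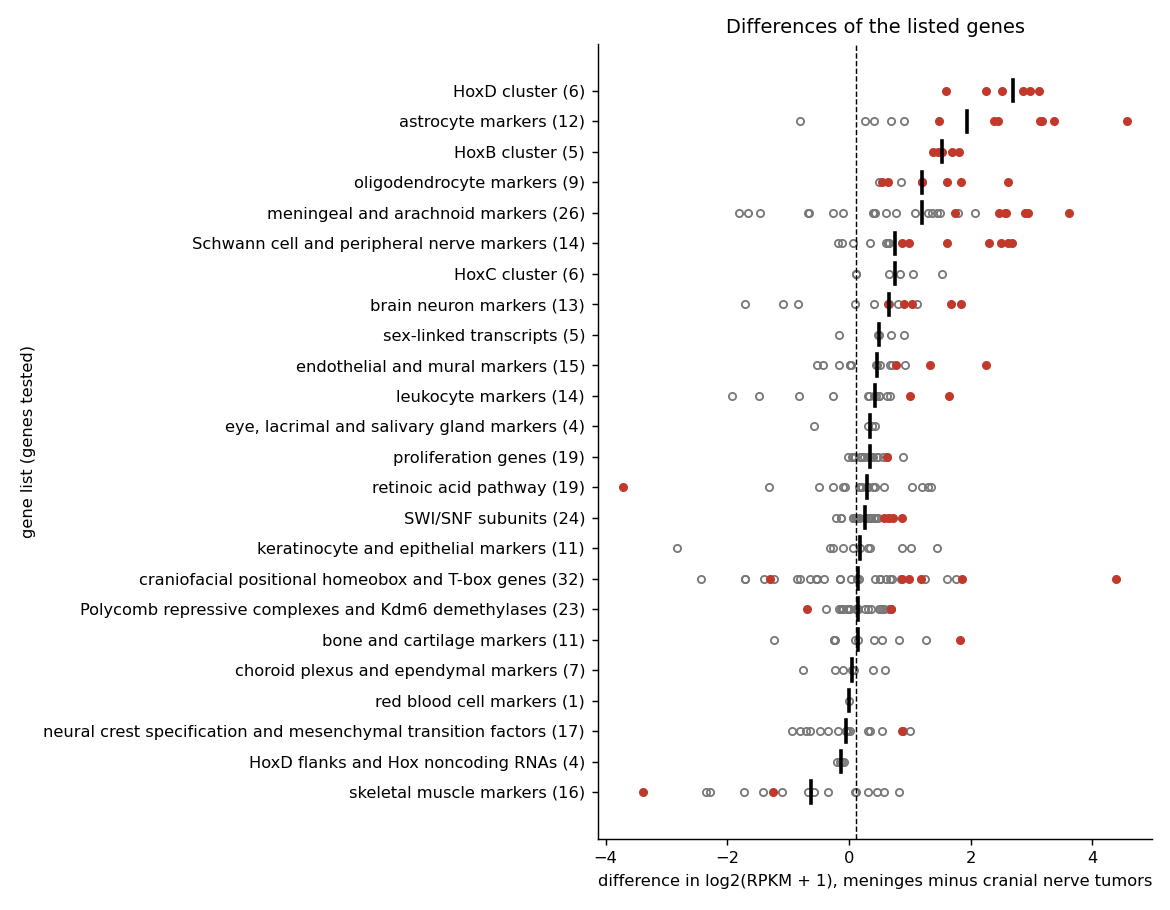
Each circle is 1 tested gene of a list (y axis, genes tested in brackets) at its difference in log2(RPKM + 1), meninges minus cranial nerve tumors (x axis). Filled red circles have an unadjusted p under 0.05, black bars are list medians, and the dashed line is the median of all 15043 genes (0.12). The HoxD list has the highest median (2.69) and the neighbors of the cluster and skeletal muscle the lowest.

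Among bone and cartilage genes 1 of 11 was higher at an unadjusted p under 0.05, near the 7.25% of all genes, and 0 without Meninges 1. It was Sp7, the osteoblast factor, which was highest in Meninges 1 (25.95, 2.73 and 8.53 RPKM against 0.0745 to 8.93 (median 1.34)). Among leukocyte markers 2 of 14 were higher at that threshold, and 0 without Meninges 2, namely Cx3cr1 and Aif1 of microglia and macrophages, both highest in Meninges 2 (69.1 and 53.4 RPKM). None of the 4 gland and eye, 11 keratinocyte and 5 sex-linked genes tested, nor the 1 red cell gene, had an unadjusted p under 0.05. Among all genes 7.25% were higher and 1.62% lower at that threshold. The Y-linked gene Ddx3y was read at 0.164, 38.2 and 24.6 RPKM in Meninges 1, 2 and 3, and 4 of the 9 cranial nerve tumors also lay under 1 RPKM, so that both groups held tumors with and without Y-linked RNA. Tumors that share the first part of their identifier were alike in this.

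As whole profiles, the meninges tumors did not pass a test of being closer to each other than to the cranial nerve tumors. Pairs of tumors were compared over the 5000 genes with the largest spread, with a distance of 1 minus Pearson's r. It averaged 0.244 among the 3 meninges tumors (0.198 to 0.301 in 3 pairs), 0.334 between meninges and cranial nerve tumors (27 pairs) and 0.338 within the cranial nerve tumors (36 pairs). The first differed from the second by 0.0901 (exact two-sided permutation test over 220 choices of 3 tumors, p = 0.0955). Meninges 1 was closest to Meninges 3 (0.198), but Meninges 2 was closest to Retro-orbital 4 (0.210) and Meninges 3 to Trigeminal N 1 (0.146). By the same kind of test, 0 genes passed an adjusted threshold, since 220 choices allow no unadjusted p below 0.00455, the value that each of the 6 HoxD genes and Slc38a5 had (1240 genes had a p under 0.05). For Hoxd3, Hoxd4, Hoxd10, Hoxd11 and Slc38a5 the filter had fixed that the groups do not overlap, so this value adds no evidence for them.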

How the data were processed

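RNA of 12 mouse tumors was extracted with RiboPure, depleted of ribosomal RNA, made into strand-keeping TruSeq libraries and sequenced as 1 pool. The authors aligned the reads to mm10 with STAR, counted them on RefSeq genes with HTSeq and deposited 1 RPKM value per gene and tumor. The gene length and read total behind each RPKM, and whether counting used strand, are not given in the sources used here. The labels' tool list also names bcl2fastq 2.17 and limma.

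The tables hold 24060 gene rows, of which 27 show a date where a gene symbol should stand. These stayed in the fits and were never named. Library totals were estimated from the steps between low values, starting from gene lengths of GENCODE M21. Fragment numbers then used the smallest length from 200 to 15000 bases that made a gene's values whole in every tumor. Whole meant within 0.05, or within 0.0001 of the number. Such a length was found for 14524 genes, so wholeness was the rule of choice and not a check. By this estimate the totals were 13206469 to 57129509 fragments, a wider range than that of the reads per sample stated in the paper. They are the scale that made values whole and may differ from the true depth. RPKM of low genes is limited by counting error: 3 fragments are the limit below which a level was not read.

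Groups follow the location label. The fit was limma 3.58.1 in R 4.3.3 (trend and robust options on) of log2(RPKM + 1) over genes with at least 1 RPKM in 3 or more tumors, Benjamini-Hochberg adjusted at 0.05. Distances and exact permutation tests were computed in Python with numpy and pandas, and the code was tested on simulated data. The labels do not say that the tumors came from separate mice, so p-values measure the spread between these samples, which may be in part within mice. The comparison, its gene lists (416 entries in 25 lists) and its tests were chosen with earlier results of these data known.

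Genes were named by a fixed rule: Smarcb1, the HoxD genes and tested Hox genes, genes past the threshold, the 10 largest differences in each direction among genes whose groups do not overlap, and up to 4 genes with the smallest p of each list, with its most abundant markers. Some list members are not reported here. The alternatives were the pseudocount (0.1, 0.5), the filter, quantile normalization, median centring, another prior, weighted locations, single locations, the identifier as a block, and each tumor left out. Refits without a meninges tumor that kept the same genes were added after seeing the data.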

Additional observations from a re-analysis of the deposited data

Results flagged for a closer look

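Single tumors stood apart within their group in 10 of 77 checks of the Hox genes and of the genes without overlap between the locations. Independent, normally spread values would give about 1 in 20, or 3.9. Many values here were at or near 0, neighboring genes go together, and the Retro-orbital tumors were checked in both groups. The 10 can therefore not be read as more than chance gives. A tumor was marked when its gap to the nearest other tumor, divided by the range of log2(RPKM + 1) over the group, passed Dixon's critical value for the 9 cranial nerve tumors or the 4 Retro-orbital tumors. Retro-orbital 3 was the highest in 4 of the 10. These were Hoxd11 among the 9 cranial nerve tumors (gap 0.654, 0.320 RPKM) and among the Retro-orbital tumors (0.885), Hoxb7 among the 9 (0.502, 1.99 RPKM) and Hoxd1 among the Retro-orbital tumors (1, 0.113 RPKM, with the other 3 at 0).

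Trigeminal N 1 was the highest of the 9 for Hoxd9 (gap 0.510, 2.54 RPKM), and Cheek 1 for Hoxb2 (0.718, 1.32 RPKM) and Hoxd12 (1, 0.0278 RPKM, 2 fragments, with the other 8 at 0). The Hoxd12 level is under the limit of 3 fragments. Retro-orbital 4 was the highest of its group for Hoxb2 (0.955, 0.268 RPKM). Retro-orbital 1 was the highest of its group for Fhl2 (0.860, 60.5 RPKM) and Cilp (0.948, 10.5 RPKM). For Hoxd9 and Hoxd11 the marked tumors were still below every meninges tumor. Groups of 3, the meninges and Cheek tumors, were not checked.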

How the results depend on the processing

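The 4 genes called higher in the meninges tumors became 2 with a pseudocount of 0.1, with quantile normalization, with location means weighted equally and with 1 tumor per identifier. They became 3 with a pseudocount of 0.5, with median centring and against the Retro-orbital tumors only (2 of the 3 higher), and 7 against the Cheek tumors only (3 higher). Without the filter 20 of 22613 genes were called, without the trended and robust prior 9, and at an adjusted p under 0.10 also 9. A filter of 1 RPKM in 6 or more tumors removed all 4 genes, and 0 of 13512 were called (limma, 1110 with an unadjusted p under 0.05). With the exact permutation test 0 were called, as its smallest p allows none. With the identifier as a random block 134 genes were called (132 higher). The consensus correlation of the block was 0.718, estimated from 3 pairs, 23 of the 79 genes followed passed under it and not in the reported fit (adjusted p 0.00194 to 0.043), and the cause of the larger count was not tested. Hoxd10 and Hoxd11 passed in each of the 20 of 24 limma refits that tested them.

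With 1 tumor left out, the count ranged from 1 to 18. It was 18 without Retro-orbital 3, 8 without Retro-orbital 4 or Trigeminal N 1, 2 without Retro-orbital 1, Retro-orbital 2, Cheek 1 or Cheek 3, and 1 without Meninges 1 or Meninges 2. Leaving out a meninges tumor left Hoxd10, Hoxd11, Hoxd4 and Slc38a5 with 2 tumors at 1 RPKM, under the filter. With the 15043 genes kept, 4, 4 and 7 were called without Meninges 1, 2 and 3, but the tumor left out had helped to choose those genes. The profile distance stayed on its side of 0.05 in all 16 refits. Its values were 0.175 with 1000 genes, 0.0574 with 10000, 0.0932 with Spearman's rho, 0.104 with a pseudocount of 0.1 (exact permutation p = 0.05) and 0.0389 to 0.141 with 1 tumor left out.

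Of the 79 genes whose differences were taken through the alternatives, 4 turned in direction, and none of them passed in any fit. Atf2 was at 0.036 without Meninges 2, and Atp5g3 at 0.12 against the Retro-orbital tumors only. Hoxc9 was at -0.12 with quantile normalization, -0.050 with median centring, -0.031 with weighted locations, -0.78 with the block, and -0.25 to 0.47 with 1 tumor left out, below 0 without Retro-orbital 1, Cheek 2, Cheek 3, Meninges 1 or Vestibular N 1. Hoxc10 was at -0.15, -0.061 and -0.90 with quantile normalization, median centring and the block, and at -0.21 to 0.48 with 1 tumor left out, below 0 without those same tumors. No paired analysis was possible because replicate numbers were given in accession order and 1 identifier alone joins a meninges tumor (Meninges 1) to a cranial nerve tumor (Cheek 1), so the identifiers entered only as the random block. Fragments limit only the low genes: 3 fragments of Hoxd10 in a cranial nerve tumor are the level of Cheek 3 and Vestibular N 1.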

Other observations

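Low HoxD expression in the cranial nerve tumors was not spread evenly. Retro-orbital 3 and Trigeminal N 1, which share the first part of their identifier, had the 2 highest summed HoxD levels of the 9 (5.98 and 8.52 RPKM), and the other 7 lay between 0.628 and 2.598. They also had the 2 highest HoxA sums of all 12 tumors (10.2 and 33.4 RPKM). Cheek 2 and Cheek 3, which share theirs as well, had nearly no Hox RNA of the A, B or C clusters (HoxC sums 0.165 and 0.268 RPKM), and so had Retro-orbital 1, which shares none (0.109). Meninges 1 and Cheek 1 held 44.2 and 109 RPKM of HoxC, while Retro-orbital 2 and Trigeminal N 1 were closer to Meninges 1 (50.2 and 55.3). Meninges 1 and Cheek 1 were further apart in HoxD (81.8 and 1.797) and HoxB (104 and 5.65).

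The 3 meninges tumors themselves differed in which part of the HoxD cluster was high. Relative to Meninges 1, Meninges 3 held less of Hoxd9 (3.397 against 18.7 RPKM) and Hoxd3 (1.01 against 5.21), and more of Hoxd13 (2.01 against 1.16) and Hoxd12 (0.665 against 0). These genes were chosen after their values were seen, and each tumor was sequenced once, so no error can be set against the differences between single tumors.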
